A study of Homo sapiens with 13 samples.

Results

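Chromosome 20 is the chromosome whose genes were, as a group, highest in R749H relative to wild-type cells, and its poly(A) RNA was examined by arm, along its length and gene by gene. The members were all isoforms, that is, all mapped mRNA 3′ ends, placed on chromosome 20 in the 9 libraries. They numbered 5814 of 211765 isoforms and belonged to 406 of 14576 genes, 133 on the short arm (20p) and 273 on the long arm (20q). The chromosome was chosen by the R749H:wild-type ratios of its genes in these same libraries, so its expression values are a description and carry no test.

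The cells were HEK293 Flp-in TREX, a human embryonic kidney line with an inducible transgene, grown with doxycycline at 2 µg/ml for 24 hr by the sample labels and then with α-amanitin at 2.5 µg/ml for 42 hr. The paper's methods give a shorter time of doxycycline before α-amanitin, and which applies is not settled by the sources used here. Both cell lines carried a tagged, α-amanitin resistant Rpb1, the catalytic subunit of Pol II, which was wild-type in 5 libraries and had the R749H substitution, a slow form of the enzyme, in 4. Sample titles and source names give the tag differently, as Avitag and B10. Each form of Rpb1 was represented by 1 cell line, so the Rpb1 form and any other difference between the cell lines cannot be told apart. The poly(A) RNA was measured by 3′ READS, which counts mRNAs by sequencing their 3′ ends, and the DNA content of the cells was not analysed here. In bulk RNA, fewer cells that express a gene and less RNA per cell cannot be told apart.

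Human chromosome 20 is a small, gene-rich chromosome. It carries housekeeping genes for mitosis, replication, splicing and vesicle traffic between clusters of tissue-restricted genes such as the defensins, cystatins and WFDC protease inhibitors. Neighbouring genes on a chromosome share DNA copy number and often chromatin environment, but each has its own promoter and 3′ end. The poly(A) tail is added downstream of a hexamer, most often AATAAA or its variant ATTAAA, that is bound by the cleavage and polyadenylation factor.

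The 3′ ends that stood for the genes were mostly ordinary poly(A) sites. The dominant 3′ end was within an annotated 3′ UTR for 247 of the 260 genes that passed the filter on low values, in an exon of another gene for 9 and outside annotated exons for 4. In the 40 nt before it, on the transcribed strand, AATAAA was found in 170 genes (65.4%), against 67.4% of all 9495 genes of the same filter. ATTAAA without AATAAA was found in 20.8% of them, against 16.7% of all genes. The 30 nt that end at the dominant 3′ end are given below for selected genes. These are 4 of the genes with the largest rise, 5 called lower and 3 with the most reads. The values that follow sum the reads of all ends of a gene. In NCOA5, FOXA2 and EIF6 the dominant end held only 33.6%, 37.4% and 39.7% of the reads. Coordinates are GRCh37, capitals mark the hexamer, and a sequence without capitals has neither hexamer in these 30 nt.
SNAI1 (chr20:48605389-48605418, + strand): atattcAATAAAgcagttaatttatatatt
HELZ2 (chr20:62189445-62189474, − strand): aatttaatgataaaaccactctgaaagctc
CPNE1 (chr20:34213968-34213997, − strand): accctcattcAATAAAgaccagtgaagacc
NOP56 (chr20:2639009-2639038, + strand): cgtgttccccAATAAAaacaaattcacaag
NPEPL1 (chr20:57290870-57290899, + strand): ttcaATTAAAtacagtcacaccgccccctc
WFDC2 (chr20:44110142-44110171, + strand): ttcccaaccAATAAAgtaaccactttcagc
FOXA2 (chr20:22561827-22561856, − strand): cacaaatctatATTAAAgtgttatacccgg
TCEA2 (chr20:62703670-62703699, + strand): ccccctcattATTAAAtgtttctttttgcc
NCOA5 (chr20:44689628-44689657, − strand): tgattactttttaATTAAAatgaaaaaagt
PPDPF (chr20:62153487-62153516, + strand): caagcggaaAATAAActccaagcagccagt
EIF6 (chr20:33866725-33866754, − strand): gccaccccATTAAAgtgcagttccctccgg
ROMO1 (chr20:34288872-34288901, + strand): ccatgtactAATAAAagaaagtctttgagt

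These ends lay 825 nt from the stop codon for SNAI1, 98 nt for NOP56, 517 nt for NPEPL1 and 166 nt for TCEA2, and held 86.5%, 87.4%, 44.8% and 91.7% of the reads of their genes. The hexamers were of both kinds among the genes called higher and among those called lower. AATAAA was present in 65.1% of the 106 called higher and 58.3% of the 12 called lower.

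Library depth ranged from 2479851 to 10135014 reads in wild-type and from 3863468 to 6475987 in R749H. R749H replicate 3 stood apart in having 6.60% of its isoforms at 1 read, against more than 30% in the others, and it held 1299 chromosome 20 isoforms, against 1945 to 3018. Intermediate filament genes of HEK293 cells summed to 508 to 783 RPM (reads scaled to a library total of 1 M, with TMM factors for the chromosome 20 genes below) in wild-type and 554 to 815 RPM in R749H, with 4 of 5 genes detected and NEFL at 0. The sum was mostly KRT18, and within it VIM was at 81.1 to 179 RPM in wild-type and 49.1 to 68.1 RPM in R749H, without overlap. Kidney epithelial markers were nearly absent, with PAX8, CDH6, UMOD, AQP1, AQP2 and SLC12A1 at 0 and a sum of at most 4.33 RPM, nearly all from PAX2, which was at 1.61 to 4.33 RPM in wild-type and 0 to 0.77 RPM in R749H. Markers of blood cells, fibroblasts and hepatocytes summed to at most 1.39, 1.55 and 3.84 RPM. Reads at the 3′ end of POLR2A, which encodes Rpb1, were 73.4 to 134 RPM in wild-type and 225 to 422 RPM in R749H. This end lies outside the mutated codon and does not check the labels.

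Chromosome 20 held a larger share of all reads in each R749H library than in any wild-type library. The share was 1.67%, 1.67%, 1.66%, 1.74% and 1.82% in wild-type replicates 1 to 5, and 2.15%, 2.17%, 2.28% and 2.15% in R749H replicates 1 to 4. The means were 1.71% ± 0.067 (SD, n = 5) and 2.19% ± 0.061 (SD, n = 4). Without the 10 chromosome 20 genes with the most reads, the shares were 1.06% ± 0.028 and 1.27% ± 0.080, a difference of 0.20 in place of 0.47 percentage points. The libraries of the 2 cell lines still did not overlap without these genes.

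Gene by gene, the median log2 R749H:wild-type ratio of the 260 genes was 0.54, a 1.45-fold higher level, with quartiles of 0.0074 and 0.99. The 9235 genes of the other chromosomes had a median of −0.075. Of the 260, 197 (75.8%) had a ratio above 0, against 45.0% of genes elsewhere and 45.8% of all genes. By limma across all 9495 genes, with Benjamini-Hochberg adjusted p under 0.05 as the threshold, 106 chromosome 20 genes were called higher, beside 10.9% of all genes. In the other direction 12 were called lower, beside 12.9% of all genes. Since the comparison chose the chromosome, nothing is read from these shares. Every R749H library was above every wild-type library in 90 of the genes, beside 9.72% of all genes, and below in 7, beside 10.1%.

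Among the 23 chromosomes, the one with the next highest median was 21 at 0.15, and the lowest were 18 at −0.49 and 17 at −0.44. With only the scaling of the authors and no TMM factors, all ratios moved down, and the median of the other chromosomes was −0.42. Chromosome 20 then had a median of 0.20, with 62 genes called higher, beside 4.54% of all genes, and 28 lower, beside 27.7%. The share of its calls that were higher was 68.9% under that scaling and 89.8% with TMM factors. Among genes with a mean of at least 100 reads, 67 of 131 were called higher, beside 16.0% of all such genes, and 5 lower, beside 18.4%.

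**Figure D1:**
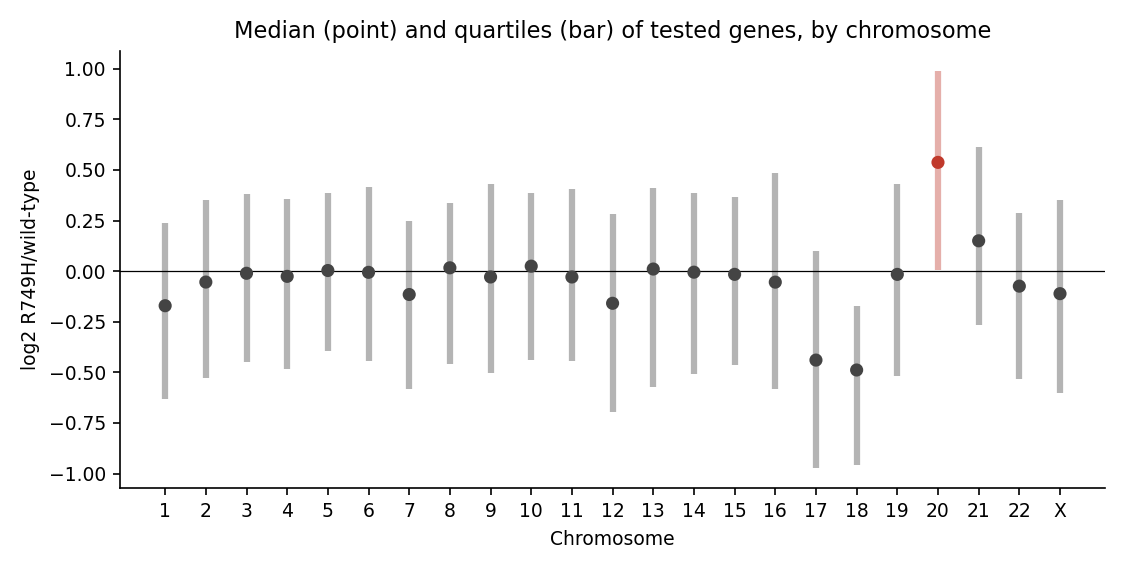
Median log2 R749H:wild-type ratio (points) and quartiles (bars) of the tested genes of each chromosome, with chromosome 20 in red. The chromosome 20 median is 0.54, and the next highest is 0.15 for chromosome 21.

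For each library, the log2 level of each gene was taken relative to the wild-type mean, and the median over chromosome 20 genes was set against that over other genes. It was −0.12, 0.0085, 0.025, 0.023 and −0.0017 in wild-type replicates 1 to 5. In R749H replicates 1 to 4 it was 0.57, 0.67, 0.57 and 0.68. The values of the 2 cell lines did not overlap, which the choice of the chromosome on these same libraries favours and which is no support for the excess.

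Both arms contributed. On 20p, the median ratio of 82 genes was 0.64, with 65 above 0, 33 called higher (40.2%) and 3 lower (3.66%). On 20q, that of 178 genes was 0.47, with 132 above 0, 73 called higher (41.0%) and 9 lower (5.06%). Over all genes, 45.8% were above 0, 10.9% were called higher and 12.9% lower. Per library, 20p stood at 0.61, 0.75, 0.69 and 0.78 in R749H replicates 1 to 4 and 20q at 0.53, 0.64, 0.50 and 0.60, on the scale relative to wild-type and other chromosomes. The wild-type range was −0.081 to 0.040 for 20p and −0.15 to 0.036 for 20q. In each of the 4 R749H libraries 20p was above 20q, but the ranges of the arms overlapped, and this difference was not tested. Among genes with a mean of at least 100 reads the medians of the arms were 0.57 and 0.58.

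**Figure D2:**
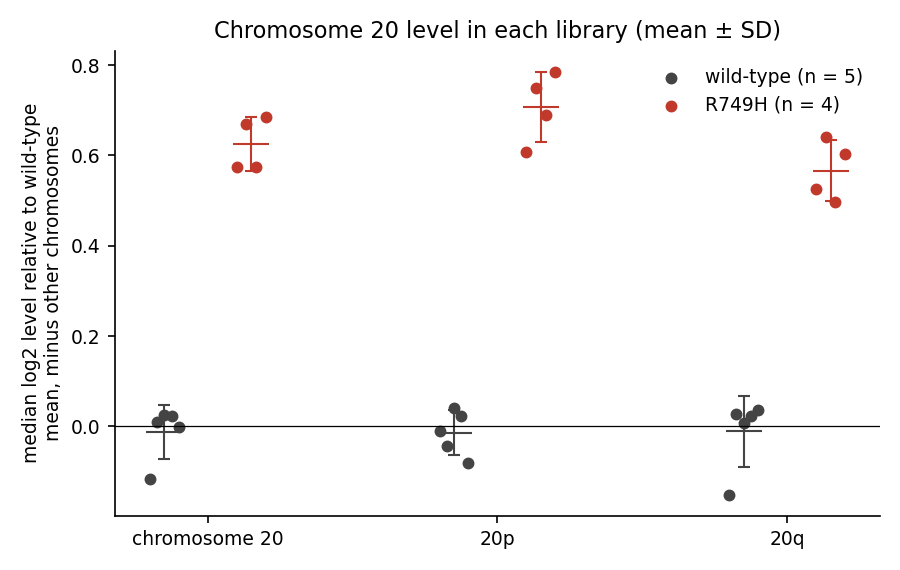
Median log2 level of chromosome 20, 20p and 20q genes in each library, relative to the wild-type mean and minus the same median over other chromosomes, with mean ± SD. The R749H points lie between 0.50 and 0.78 and the wild-type points between −0.15 and 0.040.

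Along the chromosome, genes were ordered by stop codon in groups of 30 neighbours, from C20orf96 at 0.25 Mb to PCMTD2 at 62.9 Mb. The medians of the successive groups were 0.32, 0.89, 0.66, 0.55, 0.68, 0.37, 0.65 and 0.35, followed by −0.28 in the last 20 genes. The rise thus extended over 8 of 9 groups, on both sides of the centromere gap at 26319570 to 29419569. With the scaling of the authors alone these 8 medians were between 0.0094 and 0.55, and the last was −0.62, beside −0.42 for other chromosomes. The highest group ran from CDC25B to PET117, at 3.79 to 18.1 Mb, where 25 of 30 genes were above 0. Of these 30, 15 were called higher (50%, beside 40.8% of chromosome 20 and 10.9% of all genes). Between ROMO1 and TOX2, at 34.3 to 42.7 Mb, 27 of 30 were above 0. None was called lower there, nor from POFUT1 to NFS1 or SULF2 to PMEPA1, beside 4.62% of chromosome 20 and 12.9% of all genes.

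The last 20 genes, from PPDPF to PCMTD2 at 62.2 to 62.9 Mb, did not share the rise. Of these, 6 were above 0, 2 were called higher (10%, beside 10.9% of all genes) and 4 lower (20%, beside 12.9%). Their median level relative to the wild-type mean, minus that of other chromosomes, was 0.15 in R749H replicate 1. It was −0.21, −0.31 and −0.22 in replicates 2, 3 and 4, so that replicate 1 differed in sign from the rest. Without R749H replicate 2, 3 or 4 the median ratio was −0.061, −0.037 and −0.10. In groups of 15, the medians at this end were −0.14 and −0.60, the latter from 5 genes, and a group at 44.1 to 45.8 Mb, from WFDC2 to ZMYND8, also had a median of −0.14. Without the last 2 groups of 30, the median of 20q was 0.59, and that of 20p was 0.64.

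**Figure D3:**
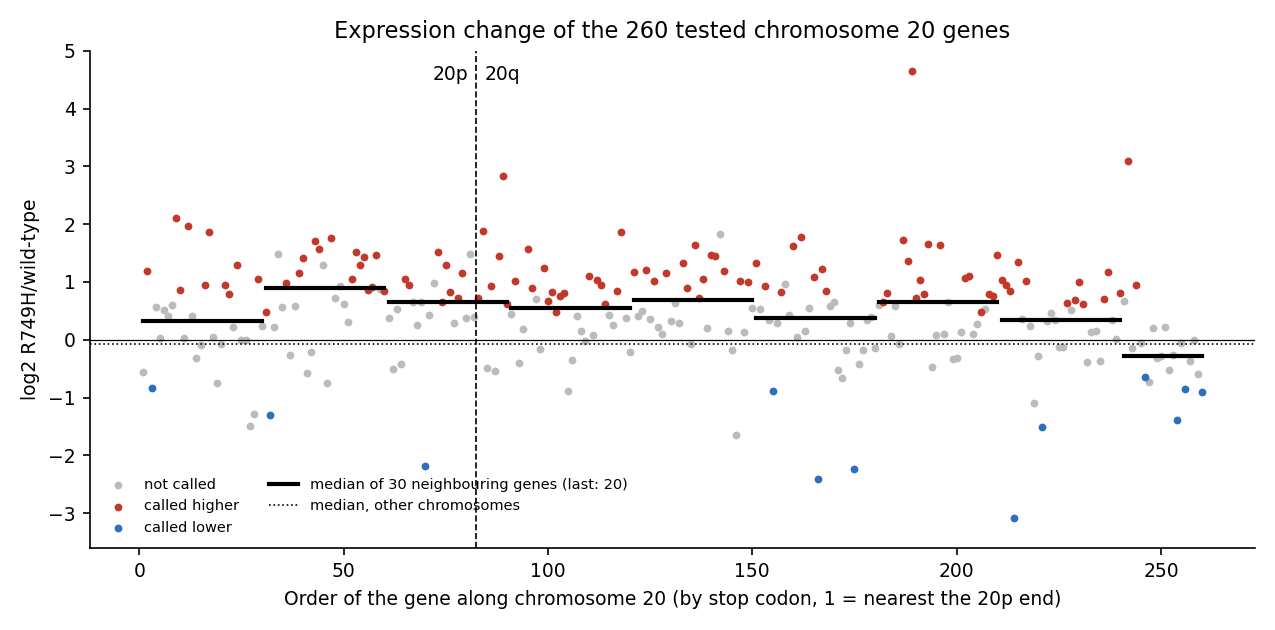
Log2 R749H:wild-type ratio of the 260 tested genes in order along chromosome 20, with the boundary between the arms (dashed line) and medians of neighbouring genes (black bars). Red and blue points were called higher and lower by limma. The medians are above 0 in 8 of 9 groups and −0.28 in the last 20 genes.

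GC content changed together with position. The GC content within 10 kb of the stop codon had a median of 60.8% in the last 20 genes and 43.7% in the group with the highest ratios. When all tested genes were divided into 3 groups of equal size by GC content, the chromosome 20 medians were 0.72, 0.59 and 0.23 from low to high GC, and those of other chromosomes were −0.060, −0.085 and −0.084. In the most GC-rich group, 67 chromosome 20 genes outside the last 20 had a median of 0.35, and 19 of the last 20 had −0.27. The 318 genes of other chromosomes with a GC content of at least 60.8% had a median of −0.0064. Whether GC content or position set these values was not tested. By annotated gene length the medians were 0.45, 0.53 and 0.55 from short to long, and by wild-type level 0.54, 0.40 and 0.65 from low to high.

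The typical rise is illustrated by genes near the median. DBNDD2, a dysbindin domain protein, was at 45.5, 89.6, 65.4, 107 and 117 RPM in wild-type and 116, 132, 114 and 109 RPM in R749H. EIF2S2, the β subunit of the initiation factor that brings the initiator tRNA to the ribosome, was at 86.3, 82.9, 75.6, 99.0 and 112 RPM in wild-type and 111, 129, 127 and 141 RPM in R749H. In both genes the lowest R749H value was below the highest wild-type value. Of the 5 genes named for lying near the median, which also included RBCK1 (0.52), LAMA5 (0.51) and SMOX (0.57), only EIF2S2 was called higher, with a log2 ratio of 0.49 ± 0.17 (SE). That call was lost under 11 alternatives, edgeR and 7 of the 9 fits with 1 library left out among them, and SMOX gained a call under 6, DESeq2 among them. A change of this size was thus often within the spread of the libraries, and 91 of the 142 genes without a call had ratios above 0.

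Of the 5 genes with the most wild-type reads, 3 were called higher, beside 40.8% of chromosome 20 and 10.9% of all genes. At a mean of at least 100 reads, 67 of 131 chromosome 20 genes were called higher, beside 16.0% of all such genes. EIF6, an anti-association factor of the large ribosomal subunit, was at 995, 1061, 989, 1109 and 1044 RPM in wild-type and 1740, 2137, 1794 and 2370 RPM in R749H (log2 ratio 0.94 ± 0.15 SE). ROMO1, a mitochondrial inner membrane protein, was at 531, 604, 716, 603 and 589 RPM in wild-type and 1190, 1381, 1402 and 1511 RPM in R749H (1.17 ± 0.15). ATP5E, the ε subunit of ATP synthase, was at 573 to 775 RPM in wild-type and 1244 to 1440 RPM in R749H (1.01 ± 0.15), with its dominant end in an exon annotated to another gene. These 3 did not overlap between the cell lines. Every R749H library was above every wild-type library in 34.6% of chromosome 20 genes and 9.72% of all genes. PPDPF, at 674 to 1808 RPM in wild-type and 1466 to 2119 RPM in R749H, and ERGIC3, a protein of ER to Golgi transport at 402 to 640 and 586 to 784 RPM, overlapped and were not called.

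The genes that exceeded the common rise were led by weakly expressed ones. There were 19 genes with a ratio more than 1 above the chromosome median. SNAI1, a zinc finger repressor of epithelial genes, had 0, 4, 0, 8 and 5 reads in wild-type replicates 1 to 5 and 37, 26, 102 and 23 reads in R749H replicates 1 to 4. All R749H libraries were higher, as the naming rule requires. R749H replicate 3 stood apart at 27.2 RPM, against 5.32 to 7.14 RPM in the other R749H libraries. The size of the ratio of such weakly expressed genes depended on the prior count, and that of SNAI1 was 4.65 with a prior count of 0.5 and 2.89 with 5. The normalised levels were 0.49 ± 0.45 RPM (SD, n = 5) and 11.5 ± 10.5 RPM (SD, n = 4). HELZ2, a helicase coactivator among the last 20 genes of 20q, had 2 to 11 reads in wild-type and 18 to 43 in R749H (log2 ratio 3.10 ± 0.53 SE, and 2.21 with a prior count of 5). CCM2L, a relative of the endothelial protein CCM2, had 4 to 19 and 24 to 78 reads (2.83 ± 0.42). SNAI1, HELZ2, CCM2L and, below, FAM110A passed the filter on low values only through R749H libraries, where they were high. Their calls are thus a description and no support for the rise.

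Other genes that exceeded it were better covered. NOP56, a core protein of box C/D snoRNPs, was at 43.0, 37.3, 45.1, 46.8 and 42.6 RPM in wild-type and 211, 136, 172 and 118 RPM in R749H (1.86 ± 0.19), with 2 of 12 isoforms also assigned to another gene. CPNE1, a calcium-dependent phospholipid-binding protein, was at 18.9, 17.8, 16.5, 21.5 and 27.7 RPM in wild-type and 51.1, 73.6, 82.7 and 94.1 RPM in R749H (1.86 ± 0.22). ID1, an inhibitor of basic helix-loop-helix factors, was at 3.01 to 9.62 RPM in wild-type and 13.9 to 22.4 RPM in R749H (1.88 ± 0.31). The cell lines were apart for each of these genes, which the rule that named them requires. FAM110A (2.11, and 1.46 with a prior count of 5), SDCBP2 (1.98), SDC4 (1.78), a heparan sulphate proteoglycan, and TMX4 (1.75), a thioredoxin-related membrane protein, completed the 10 with the largest rise among those with no overlap.

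Of the 12 genes called lower, 3 were on 20p and 9 on 20q, 4 of them among the last 20 genes and 3 in the group of 30 from OSER1 to ZMYND8, at 42.8 to 45.8 Mb. The number depended on single libraries, with 7 called lower without wild-type replicate 2 or 4 and 6 without R749H replicate 2. NPEPL1, an aminopeptidase-like protein, was at 31.1, 24.5, 24.5, 28.4 and 18.1 RPM in wild-type and 4.71, 4.67, 1.87 and 1.62 RPM in R749H. Its log2 ratio was −3.08 ± 0.33 (SE), between STX16 at 0.85 and GNAS at 1.34. WFDC2, a secreted protein with protease inhibitor folds, was at 10.9, 18.6, 17.2, 18.2 and 17.4 RPM in wild-type and 7.67, 3.30, 1.07 and 2.77 RPM in R749H. Its ratio was −2.41 ± 0.41, between PIGT at 1.09 and DNTTIP1 at 1.22. FOXA2, a forkhead factor of endoderm, was at 8.66, 8.16, 9.32, 8.95 and 9.64 RPM in wild-type and 1.74, 2.47, 5.87 and 0.46 RPM in R749H. Its ratio was −2.18 ± 0.49, between NKX2-4 at 0.66 and NXT1 at 0.43. In each of these 3 genes all R749H libraries were below all wild-type libraries, which the rule that named them requires. Every R749H library was below in 7 of the 260 genes, beside 10.1% of all genes.

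AP5S1, a subunit of the AP-5 adaptor complex, was at 8.76 to 14.2 RPM in wild-type and 3.004 to 7.15 RPM in R749H (−1.31 ± 0.30). It did not overlap, as the same rule requires. NCOA5, a nuclear receptor coregulator outside the rule for named genes and named after its values were seen, was at 1.47 to 3.21 RPM in wild-type and 0 to 1.57 RPM in R749H, which overlapped slightly (−2.24 ± 0.79). The dominant end of NCOA5 was outside annotated exons and held 33.6% of its reads. Whether the call of NCOA5 held under the alternatives was not followed. PKIG, an inhibitor of protein kinase A, was at 44.9 to 93.6 and 34.6 to 51.6 RPM (−0.89 ± 0.22), SOX12, an SRY-related factor, at 68.0 to 176 and 55.0 to 121 RPM (−0.83 ± 0.28), and CDH4, a cadherin, at 2.89 to 10.9 and 1.10 to 3.14 RPM (−1.51 ± 0.42). These 3 also overlapped between the cell lines. The call of SOX12 was lost under 9 alternatives, 7 of the 9 fits with 1 library left out and the replicate block among them, and that of CDH4 without wild-type replicate 4 or R749H replicate 2. Wild-type replicate 1, the shallowest library, was the lowest wild-type library for PKIG, SOX12 and CDH4.

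Among the last 20 genes of 20q, 4 were called lower. TCEA2, a paralog of the elongation factor TFIIS that restarts arrested Pol II, was at 166, 222, 207, 203 and 271 RPM in wild-type and 135, 107, 121 and 106 RPM in R749H (−0.85 ± 0.17). ARFRP1, an ARF-related GTPase of the trans-Golgi, was at 35.3 to 45.0 and 22.7 to 30.2 RPM (−0.64 ± 0.19), with 2 of 40 isoforms also assigned to another gene. SAMD10 was at 4.42 to 5.44 and 0.53 to 4.36 RPM (−1.39 ± 0.47), and its dominant end was outside annotated exons. The call of SAMD10 was lost under 13 alternatives, edgeR, DESeq2 and 8 of the 9 fits with 1 library left out among them, and without R749H replicate 3 its ratio was −0.83. The call of ARFRP1 was lost under 4, with wild-type replicate 2, R749H replicate 2 or R749H replicate 3 left out and with the replicate block. TCEA2, ARFRP1 and SAMD10 did not overlap between the cell lines, as the rule for named genes with the largest fall requires. PCMTD2, a relative of protein repair methyltransferases named after its values were seen, overlapped at 6.07 to 10.3 and 2.94 to 6.97 RPM (−0.90 ± 0.31). The call of PCMTD2 was likewise not followed under the alternatives.

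**Figure D4:**
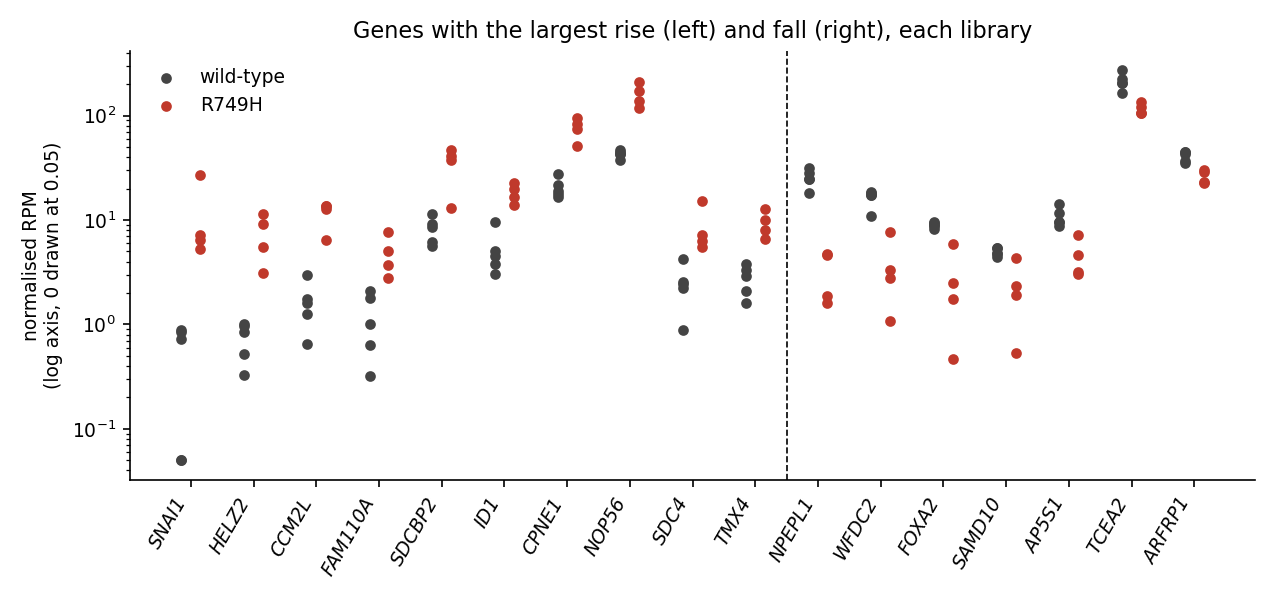
Normalised level in each library of the 10 genes with the largest rise and the 7 called lower, among genes without overlap between the cell lines. The log axis is in normalised RPM, with 0 drawn at 0.05. SNAI1 has 2 wild-type libraries at 0, and NPEPL1 falls from 18.1 to 31.1 in wild-type to 1.62 to 4.71 in R749H.

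By role, counts of calls stand beside 40.8% higher and 4.62% lower on the whole chromosome and 10.9% and 12.9% over all genes, and no list was compared with another, or with the chromosome, by a test. Of 18 cell cycle and replication genes tested, 13 were called higher and none lower, with a median of 0.89 beside 0.54 for the chromosome and −0.066 over all genes. They included E2F1, an activator of S phase genes, at 26.3 to 92.2 RPM in wild-type and 98.5 to 126 RPM in R749H (1.25 ± 0.26), and UBE2C, the ubiquitin-conjugating enzyme of the anaphase-promoting complex, at 39.1 to 56.8 and 59.5 to 114 RPM (0.85 ± 0.20). RAE1, an mRNA export and spindle protein, was at 307 to 358 and 488 to 779 RPM (0.75 ± 0.17), and MYBL2, a transcription factor of mitotic genes, at 115 to 347 and 373 to 451 RPM (1.003 ± 0.24). None of these 4 overlapped, and on chromosome 20 every R749H library was above in 34.6% of genes, beside 9.72% of all genes. E2F1 and UBE2C were named after their values were seen. PCNA, the sliding clamp of replication and likewise named afterwards, overlapped at 7.01 to 35.3 and 20.1 to 59.0 RPM (1.41 ± 0.40), and BCL2L1 had −0.49 with no call.

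Of 19 membrane trafficking genes, 12 were called higher and 1, AP5S1, lower (10.9% and 12.9% of all genes, 40.8% and 4.62% of chromosome 20), with a median of 0.85. DYNLRB1, a dynein light chain, was at 95.6 to 195 RPM in wild-type and 215 to 341 RPM in R749H (0.81 ± 0.21). Of 9 translation and ribosome genes, 7 were called higher and none lower, beside the same shares, with a median of 0.70. MRPS26, a mitochondrial ribosomal protein, had 0.22 without a call, as had SLMO2 at 0.24, which is a mitochondrial lipid transfer protein and not a translation factor. Of 7 proteasome and ubiquitin genes, 3 were called higher, with a median of 0.85. PSMF1, a proteasome inhibitor subunit, had 0.87 ± 0.24, and PSMA7, a core subunit, had 0.47 ± 0.30 without a call. CSRP2BP, at 0.38 in that list, is an acetyltransferase component.

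Of 19 mitochondrial and metabolic genes, 9 were called higher and none lower (10.9% and 12.9% of all genes, 40.8% and 4.62% of chromosome 20), with a median of 0.76. They included TOMM34, an import cochaperone, at 20.5 to 29.8 RPM in wild-type and 64.9 to 92.7 RPM in R749H (1.63 ± 0.19, named after its values were seen). GNAS, the stimulatory G protein α subunit, and TRPC4AP, an ubiquitin ligase adaptor, were 2 of the 9 and are not metabolic enzymes. Of 11 kinase and phosphatase genes, 4 were called higher and 1, PKIG, lower, with a median of 0.60. PTPN1, a phosphatase of insulin signalling named after its values were seen, was at 5.45 to 8.996 and 16.4 to 33.4 RPM (1.66 ± 0.25), and CSNK2A1, the catalytic subunit of casein kinase 2, had 0.60 ± 0.22 without a call. CSNK2A1 gained a call under 5 alternatives, edgeR and DESeq2 among them. CDK5RAP1, called higher at 0.90, is an RNA-modifying enzyme.

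Of 16 RNA processing and transcription genes, 5 were called higher and 1, TCEA2, lower (10.9% and 12.9% of all genes, 40.8% and 4.62% of chromosome 20), with a median of 0.36. SNRPB, a core Sm protein of spliceosomal snRNPs, was at 352 to 573 RPM in wild-type and 707 to 1111 RPM in R749H (0.94 ± 0.19), whereas PRPF6, a protein of the U5 snRNP near the 20q end, was at 265 to 490 and 344 to 405 RPM (−0.057 ± 0.18). Of 9 chromatin genes, 2 were called higher, with a median of 0.14, which turned to −0.20 with the scaling of the authors alone (other chromosomes −0.42). ASXL1, a Polycomb-associated protein, was at 33.3 to 84.0 and 86.1 to 145 RPM (1.02 ± 0.25), and MRGBP, a subunit of the NuA4 acetyltransferase, at 34.0 to 58.1 and 31.4 to 35.8 RPM (−0.39 ± 0.19, not called). Of 11 zinc finger genes, 1 was called higher, with a median of −0.17, and ZNF512B and ZNF335 had −0.27 and 0.28 without a call.

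Of 16 developmental regulators, 4 were called higher and 3 lower (10.9% and 12.9% of all genes, 40.8% and 4.62% of chromosome 20), with a median of 0.57. CEBPB, a leucine zipper factor, was at 92.7 to 142 and 168 to 231 RPM (0.79 ± 0.17), and the 3 called lower were FOXA2, CDH4 and SOX12, the latter 2 with calls that depended on single libraries as given above. The clusters of tissue-restricted secreted proteins were close to silent in both cell lines. Of 52 such genes, 13 had any read and 2 were tested. CST3, a cystatin expressed in many tissues, was at 223 to 339 RPM in wild-type and 428 to 507 RPM in R749H (0.65 ± 0.16), and WFDC2 was lower as given above.

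**Figure D5:**
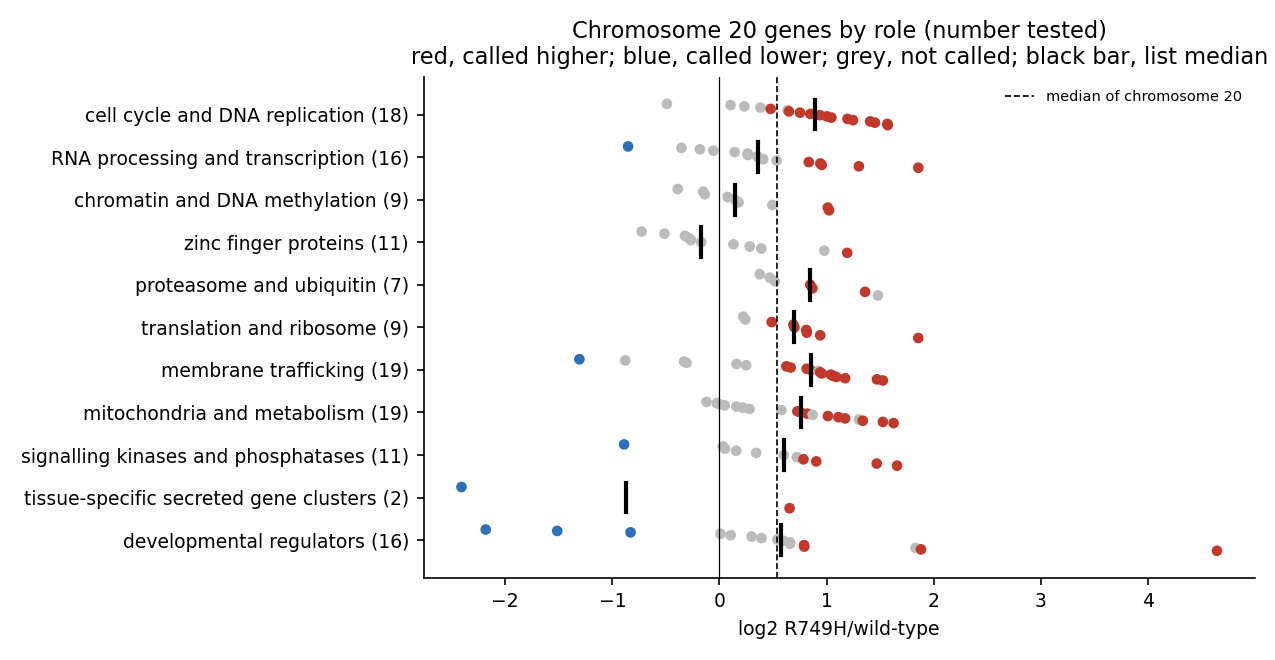
Log2 R749H:wild-type ratio of chromosome 20 genes by role, with the number tested, the median of each list (black bars) and the chromosome median of 0.54 (dashed line). Medians run from −0.88 for the 2 secreted protein genes and −0.17 for zinc finger genes to 0.89 for cell cycle genes.

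Of the 406 genes, 146 were not tested, and 69 of these had 10 reads or fewer over all libraries. In all, 20 genes had no read in wild-type and 23 none in R749H. The largest of the former was ELMO2, an engulfment and motility protein named for this count, with 9, 3, 12 and 6 reads in R749H replicates 1 to 4. Genes without R749H reads had at most 6 wild-type reads. At these read numbers the difference between 0 and a few reads was not resolved for most of these genes.

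The position of 3′ ends within genes was a measure that the sum of reads does not fix. Genes whose mean over the libraries reached 20 reads numbered 220. In these, reads downstream of the median 3′ end were compared with those at or upstream of it. Reads at the median end thus count as upstream below. For PSMF1 this was the dominant end, with 63.3% of its reads. No gene was called by limma (adjusted p under 0.05), beside 0.0259% of all genes, and none by DESeq2, beside 0.221%. At an unadjusted p under 0.05 there were 26 by limma (11.8%, beside 9.18% of all genes), 18 with more upstream and 8 with more downstream ends in R749H, and 16 by DESeq2, beside 7.33% of all genes. The lowest adjusted p by limma was 0.29. Reads on both sides of the division were higher in R749H in 144 of the 220 genes, with median log2 ratios of 0.59 upstream and 0.47 downstream. Unlike the odds, these ratios divide the same reads that chose the chromosome, so their rise is only a description. In 32 genes the upstream side alone was above 0, and in 12 the downstream side alone. These counts, and the 18 and 8 above, were not set against other chromosomes. The log2 odds of downstream ends were lower in R749H in 62.7% of the 220 genes and in 58.0% of genes on other chromosomes. Their median changes were −0.13 and −0.093.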

How the data were processed

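3′ READS libraries of 5 wild-type and 4 R749H replicates were used. The 4 eNETseq libraries were not analysed here. The authors removed 4 random nt, truncated reads to 77 nt and mapped them to hg19, which is GRCh37, allowing no mismatch within the first 30 nt. The paper names bowtie, and the submitters' processing notes name Bowtie2 version 2.3.2. They retained only reads ending in As absent from the genome, and each 3′ end went to a CCDS stop codon at most 5 kb before it. The deposited signal values are isoform read numbers after scaling by the authors, with each replicate set to 7 M and each pool to 25 M poly(A) reads. Whole reads were recovered from the smallest step of each library (100% of values whole, tolerance 0.011 in units of the scaled values), and the pooled values equalled their replicate sums.

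Reads were summed by gene name and ordered by the stop codon. Genes were tested by limma version 3.58.1 on log2 RPM (TMM factors of edgeR version 4.0.16, filterByExpr, prior count 0.5), in R version 4.3.3, over all 9495 genes with Benjamini-Hochberg adjustment. RPM of chromosome 20 genes are scaled by TMM. Because of the filter, a gene high in only 1 cell line could pass. SNAI1, HELZ2, CCM2L and FAM110A did so through R749H, and FOXA2 and SAMD10 through wild-type. The shift of 3′ ends was tested by limma on log2 odds, and by DESeq2 version 1.42.0. The tests were tried on simulated data. Sequences and annotation are from GRCh37.

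The members, lists and rules were chosen with earlier results of these data known. The genes named were the 10 with the largest rise and up to 10 with the largest fall among calls without overlap between cell lines, the 5 with the most wild-type reads, the 5 nearest the median among the 100 with the most reads, and from each of 11 lists the 2 with the most wild-type reads and those called lower. Alternatives were RLE factors, TMM factors from other chromosomes, the authors' scaling, other filters and prior counts, isoforms of 1 gene only, edgeR, DESeq2, thinned libraries, a replicate block, bins of 15 genes and each library left out. Chosen after the data were seen were the difference from other chromosomes, 20q less its last 2 bins, and counts at an unadjusted p. The paper calls the libraries biological replicates, and errors and calls measure the spread between them.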

Additional observations from a re-analysis of the deposited data

Results flagged for a closer look

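Of 98 groups of 4 or 5 libraries, 13 had a library far from the others by Dixon's criterion, and chance flags about 1 in 20 groups. Wild-type replicate 1 was the lowest in 4 of them, with a chromosome 20 median of −0.12 and a 20q median of −0.15 relative to the wild-type mean and other chromosomes, 10.9 RPM of WFDC2 and 402 RPM of ERGIC3. It is also the library with the fewest reads (2479851) and the highest TMM factor (1.263). Wild-type replicate 5 was low for CST3 (223 RPM). R749H replicate 3 had the highest chromosome 20 share (2.28%), the lowest level of CCM2L (6.41 RPM) and the highest of MRGBP (35.8 RPM), and it is the library with few isoforms at 1 read. In R749H, replicate 2 was lowest for MYBL2 (373 RPM) and CDH4 (1.10 RPM), replicate 4 was highest for SNRPB (1111 RPM) and DYNLRB1 (341 RPM), and replicate 1 was highest for PKIG (51.6 RPM). The part of depth or library in these values was not tested.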

How the results depend on the processing

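With the authors' scaling alone, chromosome 20 had 62 genes called higher, 28 lower and a median of 0.20 (20p 0.31, 20q 0.13), and ERGIC3, ZNF335 and MRPS26 turned to −0.0941, −0.0603 and −0.121. Without a filter on low values the medians were 0.38, 0.43 and 0.36, and the difference from other chromosomes 0.51. With a mean of at least 100 reads there were 67 higher and 5 lower among 131 genes, with medians of 0.57 for 20p and 0.58 for 20q, so that the order of the arms was not kept. Bins of 15 genes gave −0.60 for the last bin, 20q less its last 2 bins had 0.59, and the share less the 10 genes with the most reads differed by 0.205 percentage points. Leaving out 1 library gave 86 to 108 genes higher, 6 to 17 lower (7 without wild-type replicate 2 or 4, and 6 without R749H replicate 2), medians of 0.49 to 0.56 (20p 0.60 to 0.68, 20q 0.42 to 0.53), a difference from other chromosomes of 0.55 to 0.62, a difference in share of 0.44 to 0.50 percentage points, a last bin of −0.37 to −0.037 and 0 genes with shifted 3′ ends. The replicate block over replicates 1 to 4, which leaves out wild-type replicate 5 and whose numbers do not pair the libraries (correlations of same-numbered deviations −0.0705, 0.051, 0.016 and −0.0495, and no library closest to its own number), gave 104 higher and 9 lower, with a median of 0.55, and PRPF6 at 0.0199. PRPF6 was −0.199 to 0.0199 with 1 library left out, above 0 without wild-type replicate 5 or R749H replicate 2 (0.00645). Of 929 values of 45 named genes under alternatives, 855 kept direction and side of the threshold, 45 lost the call, 23 gained it and 6 reversed. CSNK2A1 and PPDPF gained a call under 5 alternatives each, and PSMF1 and FAM110A lost theirs under 2 and 1. The cause of these changes was not tested. Depth limits weakly expressed genes. The lowest total among tested genes was 78 reads, and the highest among genes not tested was 93.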
